A study of Mus musculus with 4 samples.

Results

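Mouse Cd209a, Cd209c, Cd209d and Cd209f are 4 of the genes related to human CD209, the C-type lectin also called DC-SIGN. They were taken by name, as every probe set whose single gene symbol was one of the 4, which gave 4 probe sets of 4 genes among 12393 genes measured, 1 probe set each. The names had been picked because their signals differed between the populations, so those signals are given as a description with no test. Gene expression was measured in 4 myeloid populations from the large-intestinal lamina propria of C57BL/6J mice, each on 1 Affymetrix 3' array. CX3CR1high macrophages were positive for CD11c and CD11b and rich in CX3CR1, the receptor for fractalkine. The CX3CR1- cells carried CD11c and CD11b but no CX3CR1, and their title also calls them DC. CD11b+ cells lacked CD11c, and their title is the abbreviation Mf. CD11chigh dendritic cells (DCs) lacked CD11b, and their title is CD103. No treatment or genetic change is named in the labels, and the age, sex and number of mice behind each array are not given in the sources used here. Since each array holds RNA of a sorted bulk population, fewer cells of a type and less RNA per cell cannot be told apart.

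C-type lectins of this family sit in the cell membrane, and through a calcium-dependent domain they bind sugars such as mannose and fucose on microbes and on host glycoproteins. Human DC-SIGN is known from dendritic cells, where it takes up glycosylated antigen and alters signalling from other pattern receptors. The mouse has several genes related to human CD209. RefSeq lists SIGNR5 as a synonym of Cd209a, SIGNR2 of Cd209c, SIGNR3 of Cd209d and SIGNR8 of Cd209f. Cd209a has been used as a marker of monocyte-derived dendritic cells, and SIGNR3 is known as a receptor for mycobacteria and fungi.

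The 4 genes were split between the 2 populations that share CD11c and CD11b. Cd209a, Cd209c and Cd209d had their highest signal in the CX3CR1- cells, and Cd209f had its highest in the CX3CR1high macrophages. In the RefSeq annotation all 7 Cd209 genes that the array measures lie on chromosome 8, in the order Cd209a, Cd209e, Cd209d, Cd209b, Cd209c, Cd209f and Cd209g. The 3 members with their highest signal in the CX3CR1- cells were thus at positions 1, 3 and 5 of this order, and Cd209f stood at position 6 beside Cd209g.

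The RefSeq promoters (GRCm38.p6, 250 bases before to 50 after the start site) of the 4 members and of Cd209g are shown because the series concerns the ETS-family factor Spic, and because Cd209f and Cd209g both had their highest signal in the CX3CR1high macrophages and share much of their promoters. Capitals mark the ETS core GGAA on either strand, which reads TTCC where it lies on the opposite strand. Cd209a is at chr8:3748935-3749234, Cd209c at chr8:3946814-3947113, Cd209d at chr8:3878450-3878749 and Cd209f at chr8:4105715-4106014, all on the minus strand. Cd209g is at chr8:4134486-4134785 on the plus strand.
Cd209a: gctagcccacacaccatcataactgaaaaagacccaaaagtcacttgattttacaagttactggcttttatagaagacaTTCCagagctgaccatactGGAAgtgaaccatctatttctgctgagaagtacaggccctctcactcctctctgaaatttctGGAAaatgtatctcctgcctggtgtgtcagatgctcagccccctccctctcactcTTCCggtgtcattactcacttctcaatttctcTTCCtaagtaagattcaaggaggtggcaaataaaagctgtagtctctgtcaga
Cd209c: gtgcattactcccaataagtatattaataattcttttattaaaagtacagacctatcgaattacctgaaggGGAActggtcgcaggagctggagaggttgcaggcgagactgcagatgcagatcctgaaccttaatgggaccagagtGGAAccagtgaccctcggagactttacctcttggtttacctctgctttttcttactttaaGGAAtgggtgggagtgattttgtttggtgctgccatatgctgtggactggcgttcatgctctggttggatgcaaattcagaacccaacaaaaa
Cd209d: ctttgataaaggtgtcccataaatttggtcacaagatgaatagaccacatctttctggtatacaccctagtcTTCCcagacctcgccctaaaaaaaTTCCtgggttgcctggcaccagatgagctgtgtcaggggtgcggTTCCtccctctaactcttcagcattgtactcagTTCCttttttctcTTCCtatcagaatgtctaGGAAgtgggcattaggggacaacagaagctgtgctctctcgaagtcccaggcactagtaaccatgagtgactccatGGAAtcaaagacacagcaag
Cd209f: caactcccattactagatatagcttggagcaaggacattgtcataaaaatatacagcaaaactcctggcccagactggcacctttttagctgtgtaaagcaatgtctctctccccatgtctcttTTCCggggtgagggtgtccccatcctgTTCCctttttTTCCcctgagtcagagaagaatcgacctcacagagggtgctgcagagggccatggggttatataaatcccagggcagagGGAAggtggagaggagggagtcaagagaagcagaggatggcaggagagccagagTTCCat
Cd209g: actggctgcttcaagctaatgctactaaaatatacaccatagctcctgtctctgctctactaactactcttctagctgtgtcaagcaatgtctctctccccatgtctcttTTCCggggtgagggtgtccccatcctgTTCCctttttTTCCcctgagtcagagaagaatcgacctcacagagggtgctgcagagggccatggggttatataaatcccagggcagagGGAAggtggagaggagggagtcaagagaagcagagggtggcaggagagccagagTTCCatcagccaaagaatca

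All 7 family genes were found in the promoter table. The core GGAA occurred 5 times in the Cd209a promoter, 3 times in that of Cd209c, 7 times in that of Cd209d and 5 times in that of Cd209f. It is a short run that 96% of 32851 RefSeq promoters of this length hold at least once, with a median of 3 per promoter. The longer PU-box letters GAGGAA, which contain the core, occurred once in the Cd209d promoter, on the opposite strand at -110 from the start site. They were not in the windows of the 3 other members, and 28.3% of all promoters hold them on either strand. Promoters of Cd209f and Cd209g shared an unbroken run of 180 identical bases. In the other 20 pairs of family genes the longest shared run was 7 to 17 bases. TATAAA, which was looked for after the sequences had been seen, was in the Cd209f and Cd209g promoters and in none of the 5 others, and 8.32% of all promoters hold it on the gene's strand.

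Values below are signals in linear intensity units, which the authors scaled to the same trimmed mean on each array. Signals under 102.9, the median of all probe sets over the 4 arrays, were set to that floor before ratios were taken. Where 1 of the 2 signals was under the floor the ratio is a lower bound ("at least"), and where both were, none is given. A gene is called higher at 2-fold or more. Single arrays allow no test, and their number limits how precise any ratio can be. The only spread at hand was that of a gene's several probe sets around their common ratio, an SD of 0.31 to 0.52 on the log2 scale in the 6 pairs of populations, which holds no difference between mice or collections. Each family gene had 1 probe set, so no second probe set could be set against it, and whether the probes of 1 member also take up transcripts of another was not tested.

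Cd209a, the gene often taken as the mouse counterpart of DC-SIGN, had a signal of 2603 in the CX3CR1- cells, 542 in the CX3CR1high macrophages, 381 in the DCs and 373 in the CD11b+ cells. It was above the floor on all 4 arrays, and the CX3CR1- cells stood alone at the top. Their signal was 4.80-fold that of the CX3CR1high macrophages, 6.82-fold that of the DCs and 6.97-fold that of the CD11b+ cells. The CX3CR1high macrophages came second, with 1.42-fold the signal of the DCs and 1.45-fold that of the CD11b+ cells, which is 1.31 and 1.64 times the spread between probe sets. DCs and CD11b+ cells differed by 1.02-fold, within that spread.

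Cd209c had a signal of 615 in the CX3CR1- cells, and the other arrays read 45.4 (CD11b+ cells), 44.2 (CX3CR1high macrophages) and 40.2 (DCs). It was above the floor in the CX3CR1- cells alone, and the 3 other populations have no order among them. The signal in the CX3CR1- cells was at least 5.98-fold that of each other population. On the signals as deposited, with no floor, the ratio over the CX3CR1high macrophages was 13.9-fold.

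Cd209d, which encodes SIGNR3, had a signal of 342 in the CX3CR1- cells, then 128 (CX3CR1high macrophages), 68.4 (CD11b+ cells) and 66.3 (DCs). The CX3CR1- cells were again highest, at 2.67-fold the CX3CR1high macrophages and at least 3.33-fold the CD11b+ cells and the DCs. The CX3CR1high macrophages lay just over the floor, and their signal was at least 1.25-fold that of the CD11b+ cells and the DCs. A bound this small does not place the difference within or beyond the spread between probe sets. On the signals as deposited, with no floor, the ratios were 1.88-fold and 1.94-fold.

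Cd209f, which encodes SIGNR8, had the opposite order within the CD11c+ CD11b+ cells. Its signal was 1753 in the CX3CR1high macrophages, followed by the CD11b+ cells (259), the CX3CR1- cells (113) and the DCs (69.0). The CX3CR1high macrophages exceeded the CD11b+ cells by 6.77-fold, the CX3CR1- cells by 15.5-fold and the DCs by at least 17.0-fold. Without the CX3CR1high array, the CD11b+ cells were the highest, at 2.29-fold the CX3CR1- cells and at least 2.52-fold the DCs. The CX3CR1- cells were at least 1.10-fold above the DCs, a bound too small to be set against the spread between probe sets. On the signals as deposited that ratio was 1.64-fold.

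Of the 3 family genes that are not members, only Cd209g, the neighbour of Cd209f, was above the floor on any array. Its signal was 411 in the CX3CR1high macrophages and under the floor in the CD11b+ cells (30.7), the CX3CR1- cells (16.1) and the DCs (2.55). The bound of the CX3CR1high macrophages over each other population was at least 4.0-fold, just short of 4-fold before rounding. Cd209b, which encodes the lectin SIGNR1 of splenic marginal zone macrophages, reached 102.8 in the CX3CR1high macrophages, just under the floor, and no more than 29.9 elsewhere. Cd209e ran from 1.06 to 53.4 and was under the floor throughout, so neither of these has a ratio.

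**Figure D1:**
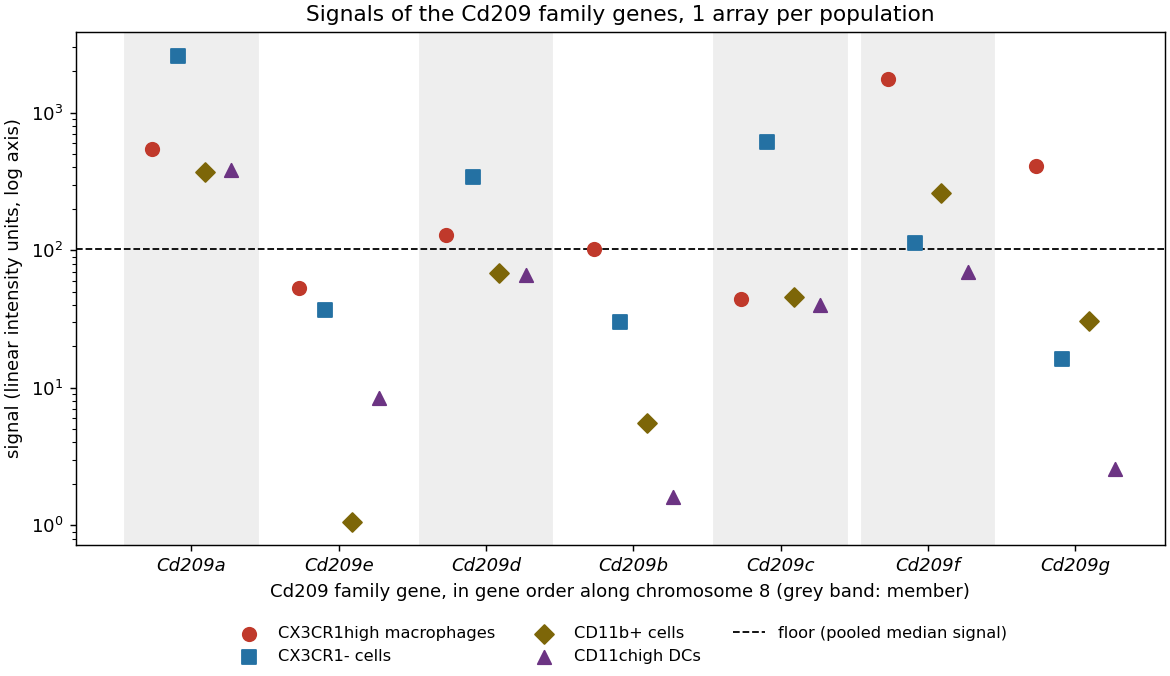
Signal (linear intensity units on a log axis) of the 7 Cd209 family genes in gene order along chromosome 8, with 1 point per population and array, the floor of 102.9 as a dashed line and grey bands behind the 4 members. Cd209a, Cd209d and Cd209c have their highest point in the CX3CR1- cells (2603, 342 and 615), and Cd209f and Cd209g in the CX3CR1high macrophages (1753 and 411).

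Between the CX3CR1high macrophages and the CX3CR1- cells, 3 of 4 members were higher in the CX3CR1- cells and 1 in the CX3CR1high macrophages. Over all 7462 genes with a ratio in this pair, 6.54% were at least 2-fold higher in the CX3CR1- cells and 8.56% in the CX3CR1high macrophages. The members were chosen on these values, so the shares are given as the background only. Against the CD11b+ cells, 3 of 4 members were higher in the CX3CR1- cells (3.55% of all genes) and 1 was higher in the CD11b+ cells (5.19%). Against the DCs, 3 of 4 were higher in the CX3CR1- cells (13.7% of all genes) and 0 in the DCs (8.7%), with Cd209f at least 1.10-fold higher in the CX3CR1- cells.

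In the CX3CR1high macrophages, Cd209f alone of the 3 members with a ratio was higher than in the CD11b+ cells (4.66% of all genes in that direction, and 5.83% in the other, where 0 members were). It was also the only one of 3 higher than in the DCs (17.4% of all genes, and 10.2% in the other direction, with 0 members). Between the CD11b+ cells and the DCs, Cd209f was higher in the CD11b+ cells (17% of all genes, and 10.4% in the other direction, with 0 members), Cd209a differed by 1.02-fold, and Cd209c and Cd209d had no ratio. The median log2 ratio over all genes was between -0.06 and 0.07 in the 6 pairs. With equal array medians it was -0.27, -0.16 and -0.22 in the pairs of the CX3CR1high macrophages, CX3CR1- cells and CD11b+ cells with the DCs, and the 14 member ratios of 2-fold or more stayed so.

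**Figure D2:**
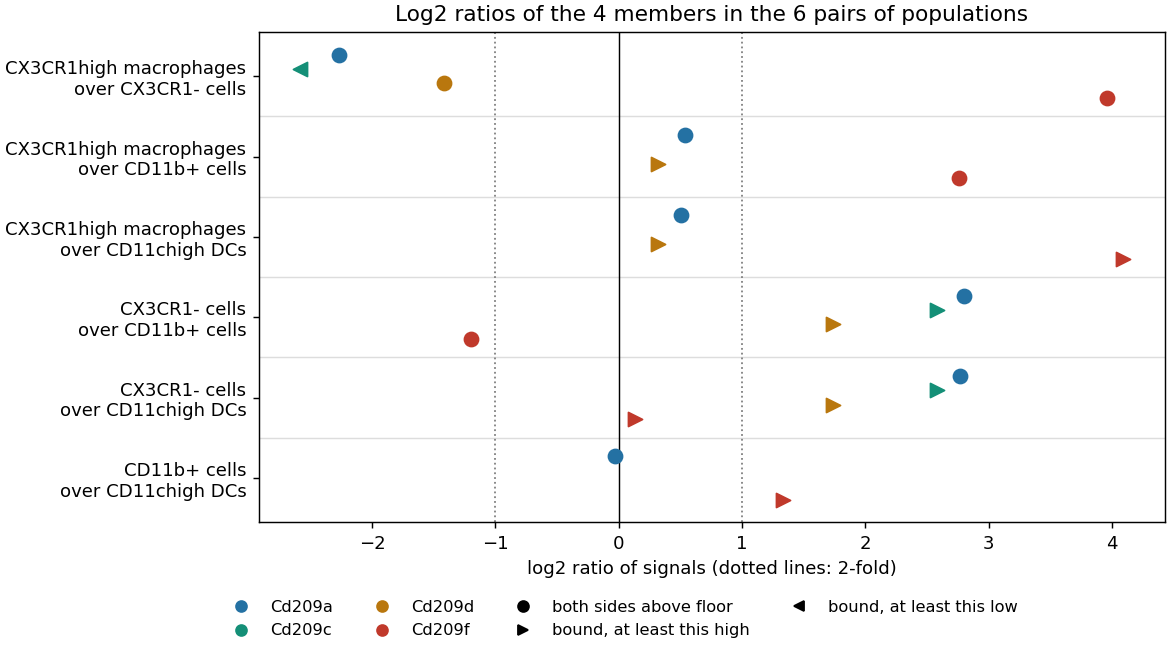
Log2 ratio of signals after the floor (horizontal axis) for each of the 4 members (colours) in the 6 pairs of populations (rows), with circles for ratios measured on both sides, triangles for bounds and dotted lines at 2-fold. A member with both sides under the floor has no mark. In the top row Cd209f lies at 3.96 and Cd209a, Cd209c and Cd209d at -2.26, -2.58 and -1.41, and in the row of CX3CR1- over CD11b+ cells Cd209f (-1.20) again lies opposite the other members.

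Few genes set the CX3CR1- cells apart from all 3 other populations at once. Among 7847 genes above the floor on at least 1 array, 44 (0.561%) were at least 2-fold above each other population there. Cd209c, Cd209a and Cd209d ranked 1, 2 and 13 by the size of that gap. Since the members had been picked for differences in these same signals, their ranks and places in this paragraph are a description only. With signals under the floor set to it, 2 genes were left at 4-fold or more (0.0255%), and these were Cd209c and Cd209a. The next was Ear3, of the eosinophil-associated ribonucleases, at least 3.95-fold above the others, which were all under the floor, by a probe set of a type that can match more than 1 transcript. This count moved with the floor: it was 5 with the floor at the 25th percentile of the pooled signals and 70 with none, Cd209a and Cd209c among them both times, and 1 with the floor at the 75th percentile, Cd209a. For the CX3CR1high macrophages, 2.93% of genes were at least 2-fold above each other population, Cd209f and Cd209g among them. There 35 genes (0.446%) were so at 4-fold or more, and Cd209f ranked 10. Ranks 1 to 5 were held by Saa1, Car4, Aqp8, Lypd8 and Sycn. Car4 and Lypd8 are on the list of epithelial markers given below, which had its highest sum, 26806, on this array. The genes so set apart are therefore not all taken as macrophage genes. In place of 35 there were 67 with the lower floor, 111 with none and 14 with the higher one, where Cd209f was no longer among them.

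The genes with the pattern most like each member were found by Euclidean distance between floored log2 signals over the 4 arrays, each gene centred on its own mean, among 3211 other genes that varied at least 2-fold. Cd209a and Cd209c were each other's nearest gene, at a distance of 0.43, and Cd209d ranked 4 for Cd209a at 0.87. Ear3 (0.69), the interleukin 7 receptor chain Il7r (0.70) and the catenin Ctnnd2 (0.89) were the others for Cd209a. For Cd209c they were Ear3 (0.52), Ctnnd2 (0.75), the vitamin D receptor Vdr (0.80) and the adhesion molecule L1cam (0.82). Vdr had a signal of 2194 in the CX3CR1- cells and of 529 to 768 on the other arrays. Nearest to Cd209d were Ctnnd2 (0.27), the interleukin 2 receptor chain Il2ra (0.30), the chemokine Ccl5 (0.34), Pgap2 (0.35) and the cytokine subunit Ebi3 (0.35). Picked for nearness to a member, each of these shared its peak in the CX3CR1- cells, for example Il7r with 7311 against 2636 in the CX3CR1high macrophages.

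Cd209f had Spic, the ETS-family factor in the title of the series, as its nearest gene, at a distance of 0.72. The Spic signal was 936 in the CX3CR1high macrophages, followed by the CD11b+ cells (239), the CX3CR1- cells (102.4) and the DCs (29.2). A second Spic probe set was at a distance of 0.64. Hpgds, a prostaglandin D synthase (0.95), Tlr7, a sensor of single-stranded RNA (1.01), the monocyte attractant Ccl12 (1.03) and the lipid-sensing receptor Trem2 (1.04) came next. Picked for nearness to Cd209f, all 5 shared its peak in the CX3CR1high macrophages, with the CD11b+ cells second. These distances rest on 4 points, 1 per array, and many signals are at the floor. The rank of Spic was also 1 with quantile normalization, with equal array medians and with the mean over probe sets, 2 with the lower floor, 3 with a pseudocount, 9 with no floor and 61 with the higher floor. Cd209c as nearest to Cd209a went from rank 1 to 4 with the pseudocount, 25 with the lower floor and 89 with none.

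**Figure D3:**
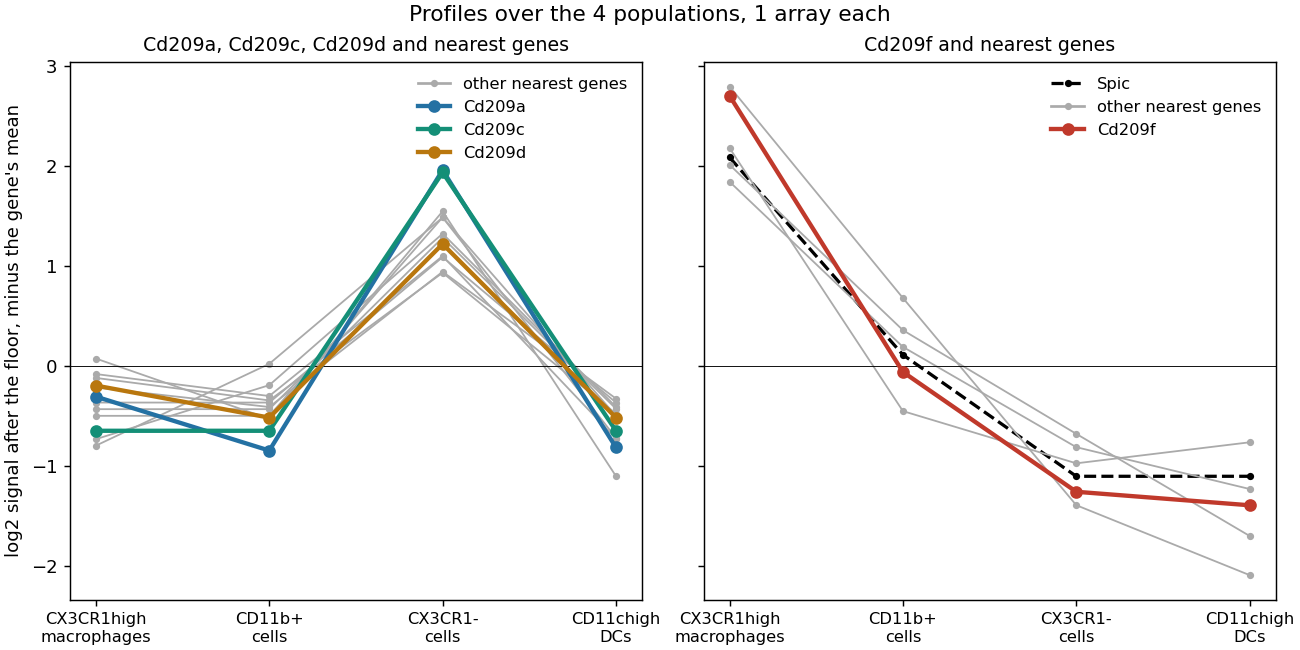
Log2 signal after the floor minus the gene's own mean (vertical axis) in the 4 populations, with the members in colour, Spic as a dashed black line and the other nearest genes in grey. The left panel shows Cd209a, Cd209c and Cd209d peaking in the CX3CR1- cells, and the right panel shows Cd209f and Spic (distance 0.72) highest in the CX3CR1high macrophages and second in the CD11b+ cells.

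Markers of other cells moved with these signals, and their part in the results was not tested. The macrophage list, 10 of 10 genes measured, had its highest summed signal, 118309, in the CX3CR1high macrophages, then came the CD11b+ cells (53612), the CX3CR1- cells (43019) and the DCs (5268), the order that Cd209f followed. Epithelial markers, 9 of 10 measured, summed to 26806 in the CX3CR1high array, with the keratin Krt8 at 6182. The CX3CR1- cells followed with 6683, the DCs with 3996 and the CD11b+ cells, which held the second highest Cd209f signal, with 2735. Each order rests on single arrays, so it cannot show which cells gave the Cd209f signal, which was not tested.

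Eosinophil markers, 5 of 6 measured, summed to 857 in the CX3CR1- cells and to 125 to 420 on the other arrays, highest of these in the CD11b+ cells. Siglecf was at 544 in the CX3CR1- cells, Ccr3 at 141 there and under the floor elsewhere, and Prg2 at 110 there and 124 in the CD11b+ cells, while Epx and Il5ra were under the floor on all 4 arrays, and no marker was at 0. The shared conventional DC list, 8 of 8 measured, summed to 51379 for the CX3CR1- cells and 44617 for the DCs. Cd209c and Cd209d were under the floor in the DCs, and whether DC content bears on their signals was not tested. The sums were 27932 for the CX3CR1high macrophages and 22185 for the CD11b+ cells. Cd83, at 14954 to 20826 on the 4 arrays, was a large part of each sum. Of the 8 genes, 6 were at least 2-fold higher in the CX3CR1- cells than in the CX3CR1high macrophages (6.54% of all genes). In the other direction there were 0 (8.56%). Monocyte markers, 5 of 8 measured, were highest in the CD11b+ cells, 46497, and stood at 24931 for the CX3CR1- cells, 23280 for the DCs and 6220 for the CX3CR1high macrophages. S100a4 alone was at 19758 in the CX3CR1- cells, 11507 in the DCs and 2153 in the CX3CR1high macrophages. Of the 5, 2 were at least 2-fold higher in the CX3CR1- cells than in the CX3CR1high macrophages (6.54% of all genes). In the other direction there was 1, Chil3 (8.56%). CD103-type DC genes (6 of 8 measured) summed to 32151 in the DCs, 13495 in the CX3CR1- cells, and less on the 2 others (6415 and 7231). Neutrophil genes (6 of 8) summed to 8748 in the CD11b+ cells and to 229 to 2029 on the other arrays. Summed signals of fibroblast, muscle and endothelial genes (10 of 10) ran from 4548 in the DCs to 50772 in the CD11b+ cells. Those of B and plasma cell genes (4 of 6) ran from 10285 to 34689 in the same populations. Jchain alone was at 10117.5 in the DCs and 34144 in the CD11b+ cells, so these sums were nearly those of 1 gene. Summed signals of T and NK cell genes (7 of 7) ran from 226 in the CD11b+ cells to 520.3 in the CX3CR1high macrophages. The Gapdh control probe sets, whose 3'/5' ratio grows as RNA is less intact, gave the highest ratio, 3.40, in the CX3CR1- cells and 0.791 to 2.17 elsewhere. That of Actb was highest in the CD11b+ cells, 3.18, then 2.76 in the CX3CR1- cells, 1.68 in the CX3CR1high macrophages and 1.11 in the DCs. Of the gate genes, Cx3cr1 peaked in the CX3CR1high macrophages (1499) and was still at 291 in the CX3CR1- cells, and Itgax, which encodes CD11c, was at 1864 in the CD11c-negative CD11b+ cells.

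Other lectins that bind mannose or galactose or serve endocytosis were compared over the same pair. Of 13 genes, 8 were above the floor on any array and 7 had a ratio between the CX3CR1high macrophages and the CX3CR1- cells. Among the 7, 2 were higher in the CX3CR1high macrophages (8.56% of all genes) and 0 in the CX3CR1- cells (6.54%). The median log2 ratio was -0.29, against 0.02 over all genes. The mannose receptor Mrc1 was 5.0-fold higher (17169 against 3436) and the scavenger lectin Colec12 at least 3.41-fold (351 against 82.1). The galactose-type lectins Clec10a and Mgl2, which are found on CD11b+ dendritic cells and macrophages, were within 2-fold, Clec10a at 1952 against 2596 and Mgl2 at 2291 against 3255. Ly75 (DEC-205) and Cd207 (langerin) had their highest signals in the DCs, 581 and 468, where no Cd209 member did. In the CX3CR1- cells they read 175 and 126, and in the CX3CR1high macrophages 28.1 and 45.7, both under the floor. Their ratios were thus bounds, at least 1.70-fold and 1.22-fold higher in the CX3CR1- cells. The count of 0 rests on the floor. With a lower floor, none or the pseudocount, 3 lectins were higher in the CX3CR1- cells and 2 or 3 in the CX3CR1high macrophages.

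Dectin-type receptors, 8 of 11 measured, had 3 genes higher in the CX3CR1high macrophages (8.56% of all genes) and 0 higher in the CX3CR1- cells (6.54%). Their median log2 ratio was 0.24. Those 3 were Clec4n (Dectin-2, 2.18-fold), Clec4d (2.34-fold) and Clec5a (at least 2.75-fold). Clec7a (Dectin-1), a receptor for fungal glucan, was at 15156 in the CX3CR1- cells and 9272 in the CX3CR1high macrophages, within 2-fold.

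Genes that act with human DC-SIGN in signalling were next. Of 15 listed, 8 were measured and all 8 had a ratio, with a median log2 ratio of -0.29. There was 1 higher in the CX3CR1high macrophages (8.56% of all genes) and 2 higher in the CX3CR1- cells (6.54%). Lsp1, a scaffold that binds the cytoplasmic tail of DC-SIGN, read 14101 in the DCs, 8296 in the CX3CR1- cells, 4535 in the CD11b+ cells and 847 in the CX3CR1high macrophages. The CX3CR1high macrophages were thus lowest, 9.79-fold under the CX3CR1- cells, while the DCs were highest with Cd209a at 381. The acetyltransferase gene Crebbp was 2.09-fold higher in the CX3CR1- cells, and Arhgef12 2.07-fold higher in the CX3CR1high macrophages. The count in the direction of Arhgef12 was 0 under 5 of the 8 alternatives. Rela and Rhoa, with 3691 against 3456 and 4526 against 4400.4, were nearly level.

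Among ligands of human DC-SIGN and enzymes that add fucose, 4 of 9 genes were above the floor on any array, and 0 of the 4 were 2-fold apart between these populations (median 0.74). The adhesion molecule Ceacam1 came nearest, at 1174 in the CX3CR1high macrophages and 592 in the CX3CR1- cells. A further Ceacam1 probe set read 976 against 353, and another 1642 against 924. Whether Ceacam1 reached 2-fold thus depended on the probe set used. All 5 fucosyltransferases (Fut1, Fut2, Fut4, Fut7 and Fut9) were under the floor in each population. In the interleukin 4 receptor route, which induces DC-SIGN on human cells, 8 of 9 genes were measured and 7 had a ratio. Of these 0 were higher in the CX3CR1high macrophages (8.56% of all genes) and 1 in the CX3CR1- cells (6.54%), with a median of -0.30. The 1 gene higher in the CX3CR1- cells was Stat6, the transcription factor of that route, at 2.37-fold (3170 against 1338). A further Stat6 probe set read 511 against 304, within 2-fold. With the mean over probe sets the count in that direction was 0. The call of Stat6 thus depended on the probe set as well. Irf4 was within 2-fold (979 against 703).

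**Figure D4:**
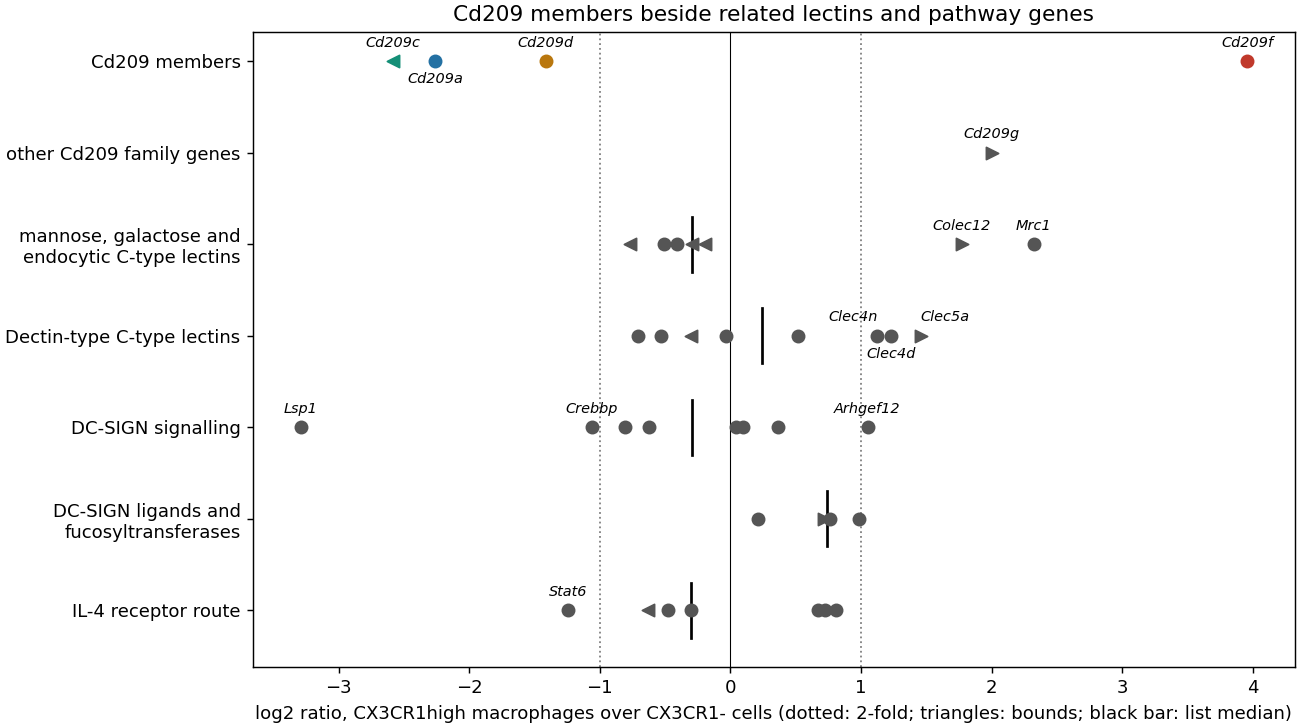
Log2 ratio of the CX3CR1high macrophages over the CX3CR1- cells (horizontal axis) for the 4 members and for each gene with a ratio in 6 lists (rows), with triangles for bounds, dotted lines at 2-fold and a black bar at each list's median where drawn. Cd209f (3.96) and Lsp1 (-3.29) lie furthest to each side, and Cd209c, Cd209a and Cd209d lie on the side of the CX3CR1- cells.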

How the data were processed

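Total RNA of 4 sorted populations was labelled with biotin and hybridised to 1 Affymetrix 3' array each, per the labels' protocols. Each deposited value is the intensity of 1 probe set on a linear scale, which the authors computed with MAS5 (version unstated), per the submitters' processing notes. On these values the mean with 2% trimmed from each end was 500.3 on all 4 arrays. Detection calls were not used here.

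Of 22690 probe sets, 20380 named 1 gene in the platform's probe table, 691 several and 1555 none, and 64 were controls. For each of 12393 genes the brightest probe set was used, with _x_at sets only where a gene had no other. The floor, the pooled median of 102.9, and the 2-fold and 4-fold limits are as the report gives them. Ratios and counts were computed in Python 3.11.15 with pandas 2.3.3 and tested on simulated data. Groups were taken from the labels.

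The named genes are the Cd209 family, members of the lists and the 5 nearest genes of each member, passing over Riken or predicted names. Members, lists and limits were chosen with earlier results of these data known. The 8 alternatives were floors at the 25th and 75th percentile, no floor, a pseudocount, quantile normalization, equal array medians, the mean over probe sets, and leaving out shared probe sets. Their use on ranks and on genes set apart from all populations was added after seeing the data. Promoters were credited to RefSeq, and protein sequences were not used here.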

Additional observations from a re-analysis of the deposited data

How the results depend on the processing

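No paired analysis was possible because each population has 1 array and no result comes from a test. Of 20 member ratios, 14 were 2-fold or more, and over the alternatives these gave 96 values, all 96 with the same sign and 93 still 2-fold or more. Between the CX3CR1high macrophages and CX3CR1- cells, the Cd209c log2 ratio was -3.80 with the lower floor or none, -3.25 with the pseudocount and -0.44 with the higher floor, where Cd209f was at least 1.95. Cd209d had no ratio with the higher floor. With shared probe sets left out, only Cd209c could be measured.

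In the same pair, the other Cd209 family genes higher in the CX3CR1high macrophages numbered 2 with the lower floor, none or the pseudocount. Mannose, galactose and endocytic lectins higher in the CX3CR1- cells numbered 3 under those settings, and 1 was higher in the CX3CR1high macrophages with the higher floor. DC-SIGN signalling genes higher in the CX3CR1high macrophages were 0 with the higher floor, the pseudocount, equal medians, the mean over probe sets or no shared probe sets. Those higher in the CX3CR1- cells were 1 with the higher floor, the pseudocount or no shared probe sets. DC-SIGN ligand genes higher in the CX3CR1high macrophages were 2 with no floor and 1 with the pseudocount. IL-4 route genes higher in the CX3CR1- cells were 2 with the lower floor, none or the pseudocount and 0 with the mean over probe sets, and 1 Dectin-type gene was left without shared probe sets. The cause of these changes was not tested. Genes at least 4-fold above each other population were 5, 70 and 1 in the CX3CR1- cells and 67, 111 and 14 in the CX3CR1high macrophages with the lower floor, none and the higher floor. In the other pairs, 94 of 428 list counts moved, by over 1.5 times or from or to 0, where the change can be 1 gene. Over the alternatives, 9 of 19 ranks of Spic, Cd209a and Cd209c among nearest genes were not those of the main setting. Signals under 102.9 leave the Cd209c ratios, and some of Cd209d and Cd209f, as bounds.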
